A study of Mus musculus with 2 samples.

Results

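The antigen-presentation-rich spots are 346 of the 3469 ST spots of the HFD liver section that held at least 5000 UMIs, and of 7286 spots over tissue in both sections of the series. ST (spatial transcriptomics, here 10x Visium) captures RNA from a tissue section on a slide of barcoded spots, and each captured molecule is counted once by its unique molecular identifier (UMI). The spots were ranked by the share of their UMIs that came from the MHC class II genes Cd74, H2-Aa, H2-Ab1 and H2-Eb1, and the highest 10% (rich, 346 spots) were set against the lowest 30% (poor, 1040 spots), with 2083 spots between them. The members were therefore selected on the measured level of these genes. The HFD section came from 1 male C57BL/6J mouse, bought at 5 weeks of age and acclimated for 1 week. A diet of 60% fat was fed for 14 weeks before an intervention of 8 weeks, in which distilled water was given by mouth once daily. The paper does not state which diet was fed during those 8 weeks. The NCD section came from 1 mouse on normal chow diet with the same times and the same water. Both livers were perfused, frozen in embedding compound and cut at 10 µm. With 1 section per diet, mouse, section, slide and diet cannot be told apart, spots are not replicates, and no test was possible. Every interval given here is at the 95% level and covers counting error of pooled UMIs only. Neither animals nor slides were repeated, and the spread between spots of a group is not in the intervals.

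MHC class II molecules show peptides from engulfed protein to CD4 T cells. H2-Aa, H2-Ab1 and H2-Eb1 encode chains of the molecule itself, and Cd74 encodes the invariant chain that fills its groove until the endosome, where H2-DM exchanges the remaining fragment for a peptide and H2-DO restrains that exchange. In the liver, dendritic cells, B cells, Kupffer cells and recruited macrophages carry class II, and dendritic cells are known to gather around the portal tracts. A spot holds several cells of different types, so a spot rich in class II transcripts is a small region and not a cell. More cells of a type and more RNA per cell cannot be told apart in such counts.

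Hepatocyte transcripts dominated the rich spots as they did the rest. The 12 hepatocyte genes took 133086 of every 1000000 UMIs (counts scaled to that total, CPM) in rich and 149719 CPM in poor spots. The labels' cell type, immune cell, and cell line, hematopoietic stem cell, were thus not those of the tissue on the slide.

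The class II genes of mouse chromosome 17 share short promoter elements, among them the Y box, which holds the reversed CCAAT sequence ATTGG and is bound by NF-Y. The letters TGATTGG, searched on both strands in the 250 bases before the first base of each gene in RefSeq's table (GRCm38.p6), were found in 7 of the 8 class II genes present in that table and in 7.23% of all 32851 windows. H2-Ab1 has no entry in that table. The match lay on the coding strand in all 7 genes. The sites are shown because they set the ranking genes H2-Aa and H2-Eb1 beside 5 class II genes that took no part in the ranking, with the matched letters in capitals and 10 bases on either side.
H2-Aa, 50 bases before the gene, chr17:34287857-34287883, minus strand: gagaattttcTGATTGGttctggcgag
H2-Eb1, 61 bases before, chr17:34305796-34305822, plus strand: cctttgatgcTGATTGGctcccagcac
H2-DMb1, 63 bases before, chr17:34153118-34153144, plus strand: attcactcagTGATTGGtctgacctgc
H2-DMb2, 92 bases before, chr17:34145147-34145173, plus strand: agtcacttagTGATTGGactgacttaa
H2-Oa, 45 bases before, chr17:34092324-34092350, plus strand: agaactgctcTGATTGGctgcttaccg
H2-Ob, 59 bases before, chr17:34238836-34238862, plus strand: tcttcgctctTGATTGGttaacagtgt
H2-Eb2, 102 bases before, chr17:34325563-34325589, plus strand: tcttggctgcTGATTGGttcttcagca
The remaining gene, H2-DMa, has 2 entries and neither held these letters in its window, which says nothing about the factor.

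The rich spots spanned a wide range of class II levels. The lowest of them held 1464 CPM of the ranking genes, the median 1871 CPM and the highest 16569 CPM. Poor spots ran from 0 to 494 CPM with a median of 355 CPM, and 23 of them held no UMI of the ranking genes. These values were fixed by the ranking. The 1398 HFD spots off tissue, with a median of 1175.5 UMIs, held 501 CPM of the ranking genes in all, above the pooled 341 CPM of poor spots and below the 2274 CPM of rich spots. The 5 spots just inside the rich group held 1464 to 1474 CPM and the 5 just outside it 1455 to 1463 CPM, so the border cut through a continuous range. The median spot had 39 UMIs of the ranking genes in the rich group, 15 in the middle group and 6 in the poor group. The groups were alike in depth, with a median of 18657.5 UMIs per rich spot, 19290 per middle spot and 18549 per poor spot. Genes detected per spot had medians of 3916, 3770 and 3608.

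**Figure D1:**
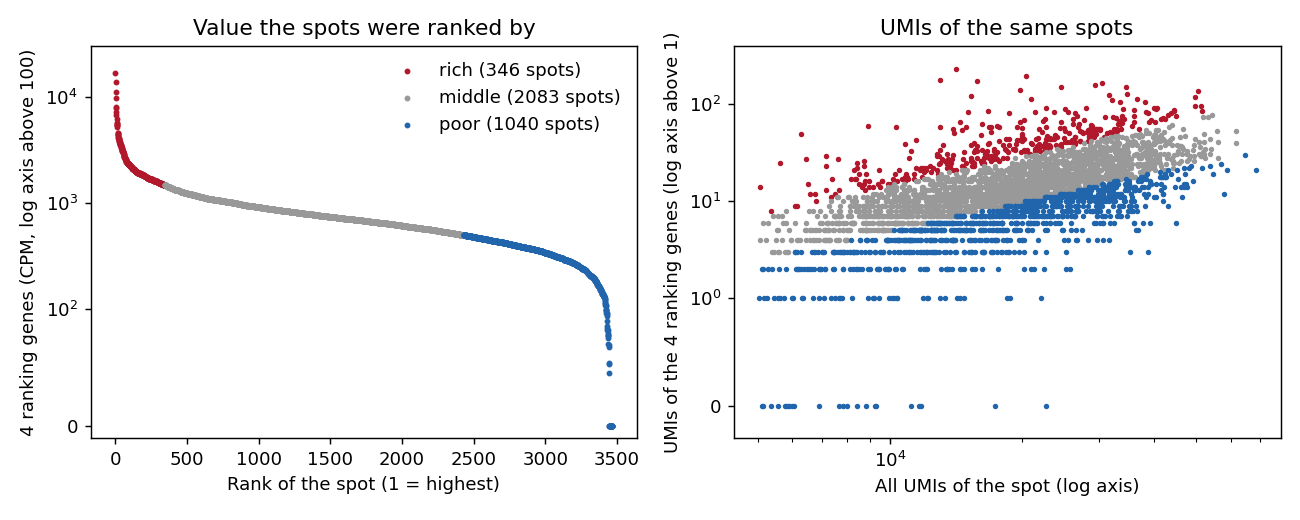
Left, CPM of the 4 ranking genes in each of the 3469 HFD spots by rank, on an axis that is logarithmic above 100. Right, UMIs of the ranking genes against all UMIs of the same spots. Rich spots (red) begin at 1464 CPM and reach 16569 CPM, poor spots (blue) end at 494 CPM, and both groups hold shallow and deep spots.

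Each of the ranking genes contributed to the selection. Cd74 stood at 885 CPM in rich, 330.3 in middle and 139 in poor spots. H2-Aa stood at 490.1, 181 and 77.1 CPM, and H2-Ab1 at 478, 171 and 69.8 CPM. H2-Eb1 stood at 421, 134 and 55.3 CPM. Cd74 made up 38.9% of the ranking UMIs in rich spots and 40.7% in poor spots, so the mixture of the genes changed little. A value that the ranking did not use comes from leaving each gene out in turn. When spots were ranked on the other genes, Cd74 stood at 822 CPM in rich and 188 CPM in poor spots, a log2 ratio of 2.13 (95% interval 2.07 to 2.19). The left-out gene had a log2 ratio of 2.18 for H2-Aa, 2.29 for H2-Ab1 and 2.45 for H2-Eb1. Between 85.5% and 91.3% of the rich spots were the same spots under these rankings.

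Over all other genes with at least 200 UMIs in both groups together, 693 of 7634 were at least 1.5-fold higher in rich spots, which is 9.08% of the genes compared, and 34 were at least 1.5-fold lower, which is 0.445%. The median log2 ratio was 0.10. At 2-fold, 321 genes were higher and 0 lower, and the intervals lay wholly above 0 for 2241 genes and wholly below 0 for 924. The genes below that did not reach 200 UMIs are given with their UMIs, and they are not among these counts. Rich spots held 7123631 UMIs in all and poor spots 21287279, so equal UMIs of a gene mean a higher CPM in rich spots.

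Other genes of the class II pathway that took no part in the ranking stood higher in rich spots where they encode chains of H2-DM or H2-DO or the regulator Ciita. The 10 genes together held 128 CPM in rich, 61.4 in middle and 45.2 in poor spots, a log2 ratio of 1.5 (1.37 to 1.63). Off tissue they held 51.4 CPM, above poor spots. H2-DMa, a chain of the peptide exchanger, had 42.5 CPM in rich and 10.2 in poor spots (log2 ratio 2.06, 1.80 to 2.32), and its partner H2-DMb1 had 40.3 and 8.46 CPM (2.25, 1.98 to 2.53). They were the members past 1.5-fold among the 4 with at least 200 UMIs. Below that minimum, the H2-DO chains had 34 UMIs of H2-Oa in rich against 11 in poor spots and 15 UMIs of H2-Ob against 7, although the poor group has 1040 spots and the rich group 346. H2-DMb2, a close copy of H2-DMb1 whose reads may be hard to assign, had 28 against 9 UMIs. Ciita, the master regulator of class II, had 38 UMIs in rich and 32 in poor spots (1.83, 1.11 to 2.55). The general DNA-binding factors that work with it differed little. Rfxap had 15.6 and 14 CPM (0.15, −0.17 to 0.47), Rfxank 9.26 and 7.09 CPM (0.39, −0.05 to 0.81), and Rfx5 17 against 55 UMIs (−0.11, −0.99 to 0.69).

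The endolysosomal genes that cut and process antigen differed among themselves. Of 11 members with at least 200 UMIs, 5 were at least 1.5-fold higher and 0 lower, with a median log2 ratio of 0.45. Ctss, the protease that trims the invariant chain, had 198 CPM in rich, 103 in middle and 60.5 in poor spots (1.71, 1.60 to 1.82). Ifi30, a thiol reductase that opens disulfide bonds of antigens, had 88.2 and 36.8 CPM (1.26), Cst3, an inhibitor of cathepsins, had 974 and 420.1 CPM (1.21), and Lgmn, the asparagine endopeptidase, had 177 and 80.7 CPM (1.14). Ctsl stood at 784 and 771 CPM (0.02, −0.02 to 0.07), and Lamp1, a lysosomal membrane protein, at 677 and 633 CPM (0.10).

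Class I presentation, which all nucleated cells carry out, was close to level across the same spots. The 17 genes together held 7249 CPM in rich and 6624 CPM in poor spots (log2 ratio 0.13, 0.12 to 0.14), and 1 of 17 was past 1.5-fold, Psmb8, a subunit of the immunoproteasome, with 81.7 and 45.8 CPM (0.84, 0.69 to 0.99). The median of the members was 0.35. B2m, the light chain of class I, stood at 3606 and 3502 CPM (0.04), and the heavy chain H2-K1 at 1574 and 1475 CPM (0.09). Tap1, which pumps peptides to class I, had 33.0 and 23.2 CPM (0.51).

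Each list of genes for dendritic cells stood higher in rich spots, least so the plasmacytoid list. The list for migratory dendritic cells held 47.7 CPM in rich, 17.0 in middle and 11.9 in poor spots (2.01, 1.77 to 2.25), with no member at 200 UMIs. Off tissue that list stood at 12.4 CPM. Its gene Ccr7, the receptor that guides these cells along lymph vessels, had 63 UMIs in rich against 13 in poor spots (3.86, 2.98 to 4.84), and Ccl22, a chemokine they release, had 50 against 16 (3.22, 2.39 to 4.13). The list for conventional type 2 cells held 87.3 CPM in rich and 26.2 in poor spots (1.74, 1.57 to 1.91), and 28.5 CPM off tissue. Its 1 member with at least 200 UMIs had a log2 ratio of 1.37. Cd209a, a lectin of those cells, had 51 UMIs against 6 (4.67, 3.45 to 6.18), and Itgax (CD11c) had 120 against 65 (2.46). For conventional type 1 cells the list held 101 and 39.0 CPM (1.37, 1.23 to 1.52). Of its 2 members with at least 200 UMIs, 1 was past 1.5-fold, and their median was 1.05. There Clec9a, a receptor for dead cells, had 25 UMIs against 15 (2.32), Wdfy4, needed for cross-presentation, had 106 against 46 (2.78), and Xcr1 had 8 against 1. The migratory, type 2 and type 1 lists had 340, 622 and 720 UMIs in rich spots. The members named here made up the smaller part of each, and their ratios were above those of their lists. The plasmacytoid list was 275 and 239 CPM (0.20, 0.13 to 0.28), nearly all of it Bst2, which many cells make. Siglech, its defining gene, had 6 UMIs in the 346 rich spots against 9 in the 1040 poor spots.

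Costimulatory molecules, which a T cell needs beside the peptide, held 69.1 CPM in rich and 26.5 CPM in poor spots (1.38, 1.2 to 1.56). Cd83, a mark of mature dendritic cells, had 12.5 CPM in rich and 3.05 in poor spots (2.03, 1.56 to 2.52). Cd86 had 9.55 and 3.57 CPM (1.42, 0.93 to 1.91), and Cd40 had 19 UMIs against 10 (2.51, 1.33 to 3.77). Cd80 was near the limit of the counts, with 5 UMIs against 4.

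Macrophage transcripts made up more of the rich spots than those of any other immune cell list. The 15 pan-macrophage genes held 2010 CPM in rich, 1131 in middle and 738 in poor spots (1.44, 1.41 to 1.48), and 14 of 15 were past 1.5-fold, with a median of 1.54. In the 1398 HFD spots off tissue they held 731 CPM, near their level in poor spots. How much of the level in poor spots was RNA from elsewhere on the slide was not tested. Lyz2 (lysozyme) had 389 and 106 CPM (1.88, 1.80 to 1.96), Tyrobp, a signal adaptor, had 257 and 81.6 CPM (1.66), and C1qb, a chain of complement C1q, had 257 and 88.1 CPM (1.54). Ms4a7, which marks monocyte-derived macrophages, had 17.8 and 4.09 CPM (2.13).

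Lipid-associated macrophages (called NAM in this study) and resident Kupffer cells were both represented. The lipid-associated list held 1632 CPM in rich, 988 in middle and 788 in poor spots (1.05, 1.02 to 1.08), and 10 of its 12 members with at least 200 UMIs were past 1.5-fold. Off tissue that list stood at 702 CPM. Mmp12, a macrophage elastase, had 61.8 CPM in rich, 20.9 in middle and 10.7 in poor spots (2.53, 2.30 to 2.77). Gpnmb, a lysosomal glycoprotein, had 52.6 and 11.5 CPM (2.19, 1.96 to 2.43), Trem2, the lipid receptor that names the state, had 34.7 and 7.70 CPM (2.17, 1.88 to 2.46), and Spp1 (osteopontin) had 411 and 124 CPM (1.72). Lgals1 and Cd36, which other liver cells also make, stood at 0.49 and 0.05 on the log2 scale. The Kupffer list held 427 CPM in rich and 235 in poor spots (0.86, 0.80 to 0.93), with 6 of 7 compared members past 1.5-fold. Off tissue that list stood at 210 CPM. Vsig4, a complement receptor, had 24.7 and 10.6 CPM (1.22), Cd5l had 180.4 and 79.7 CPM (1.18), and Clec4f, a lectin found on Kupffer cells, had 58.1 and 36.1 CPM (0.69, 0.51 to 0.86). Timd4, another Kupffer marker, was near its limit in this section with 10 UMIs in the 346 rich spots and 15 in the 1040 poor spots.

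B cells contributed few transcripts that could be counted. The B cell list held 254 CPM in rich and 133 CPM in poor spots (0.93, 0.85 to 1.02), but 236 and 124 CPM of these came from Ly6d, which is not particular to B cells. Without Ly6d, an alternative chosen after seeing the data, the list held 18.1 and 9.35 CPM (0.95, 0.62 to 1.28). Its defining genes were at or near 0: Cd79a had 3 UMIs in rich and 14 in poor spots, Ms4a1 (CD20) 3 and 7, and Pax5 none. The plasma cell list stood at 361 and 335 CPM (0.11, 0.04 to 0.17), most of it Sdc1 and Xbp1, which hepatocytes make. Igkc, the kappa light chain, had 35.2 and 13.6 CPM (1.38, 1.13 to 1.62).

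T cell transcripts were sparse and took a larger share of UMIs in the rich spots, although most of their UMIs lay in other spots. The 13 genes held 54.5 CPM in rich, 19.3 in middle and 13.8 in poor spots (1.98, 1.76 to 2.21), and none had 200 UMIs. At least 1 T cell UMI was found in 50% of rich, 26.9% of middle and 21.2% of poor spots. After each spot was drawn down to 5000 UMIs these shares were 20.8%, 7.87% and 5.96%. The list stood at 13.3 CPM in the 1398 spots off tissue, near its level in poor spots. Thy1, which fibroblasts and lymphatic cells also carry, had 86 UMIs against 21 (3.61), and leaving it aside the receptor chains had lower ratios, with Trbc2 at 54 against 56 UMIs (1.53, 0.96 to 2.09) and Cd3d at 44 against 40 (1.72). Cd4, whose product docks on class II, had 7 UMIs against 6, and Cd8b1 had 22 against 17 (1.95). The list for NK and cytotoxic cells held 121 and 41.6 CPM (1.54), of which Ccl5 made 103 and 35.1 CPM (1.56, 1.41 to 1.70). Ncr1, which defines NK cells, had 1 UMI against 0. The neutrophil list held 25.8 and 12.2 CPM (1.08), with S100a8 at 70 against 83 UMIs and Ly6g at 0 in both groups. Off tissue the NK and cytotoxic list stood at 48.7 CPM and the neutrophil list at 13.3 CPM, both above poor spots.

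Among genes with at least 200 UMIs, most of the 12 highest ratios belonged to genes of the contractile apparatus and the extracellular matrix, beside a chemokine and a pair of calcium-binding proteins. The minimum is on rich and poor spots together, and of these 12 genes only Acta2 (264 UMIs) and S100a6 (339 UMIs) reached it in poor spots alone. The others passed it with the help of the rich spots where they are high, as Cnn1 did with 196 UMIs in rich and 17 in poor spots. Which genes are highest thus depends on the minimum. Below it, Cd209a (4.67) and Ccr7 (3.86), given above, had ratios in the same range. Cnn1 (calponin, smooth muscle) had 27.5 CPM in rich, 2.08 in middle and 0.799 in poor spots (5.11, 4.39 to 5.92). Ccl21a, the ligand of Ccr7, had 100.4, 4.46 and 3.24 CPM (4.95, 4.59 to 5.33). The mouse genome has near-identical copies of that gene, so its UMIs may include theirs. Mfap4, a protein of elastic fibres, had 30.9, 3.28 and 1.03 CPM (4.90, 4.27 to 5.60). Fmod (4.18), Mgp (4.11), Fbln1 (4.0) and Aebp1 (3.47) encode matrix proteins, Acta2 (3.52), Myh11 (3.38) and Myl9 (3.34) encode the contractile apparatus, and S100a4 (3.32) and S100a6 (3.20) encode calcium-binding proteins. Mgp had the highest CPM of them in rich spots, with 152 CPM in rich, 18.0 in middle and 8.78 in poor spots. In each of these 12 genes the middle spots lay closer to poor than to rich spots.

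**Figure D2:**
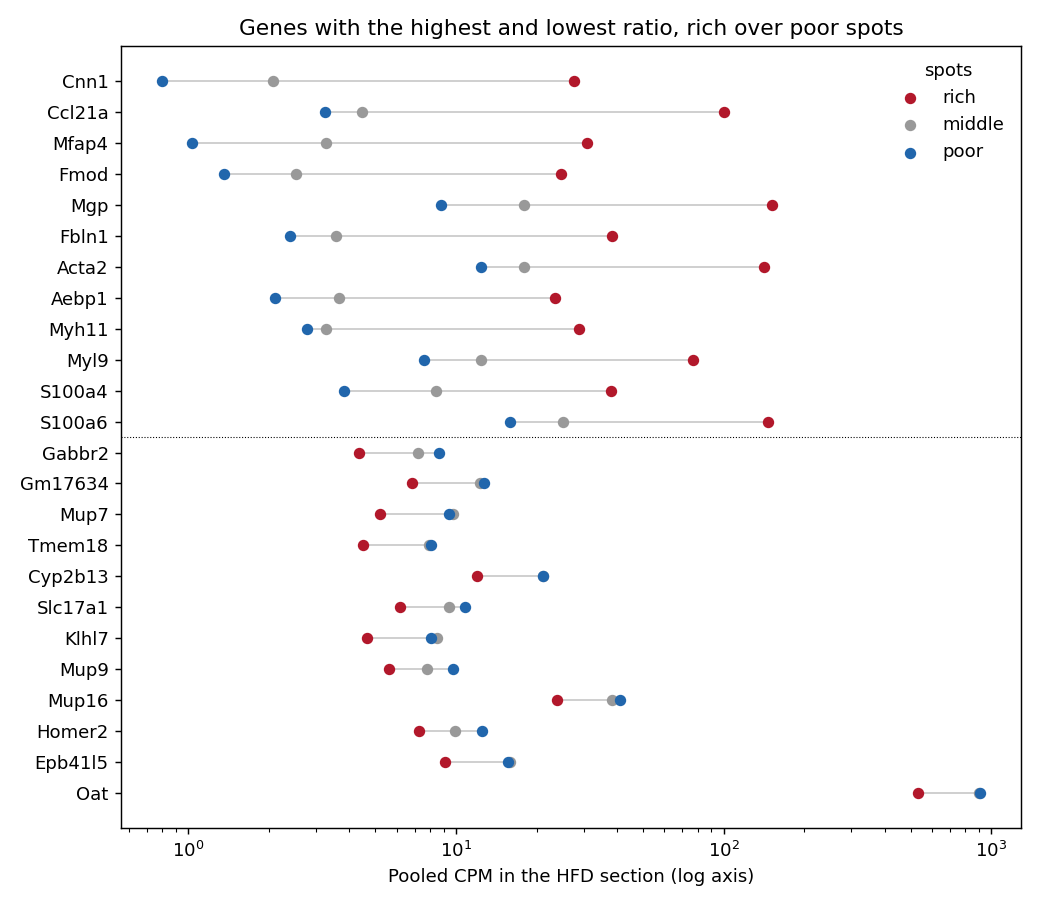
Pooled CPM (log axis) of the 24 genes at the ends of the ratio of rich to poor HFD spots, 12 each way, in rich (red), middle (grey) and poor (blue) spots. Cnn1 runs from 0.799 CPM in poor to 27.5 CPM in rich spots, while none of the 12 lowest genes reaches a 2-fold difference.

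These transcripts were held by few of the rich spots. Of 196 Cnn1 UMIs in the 346 rich spots, 83.2% lay in 34 spots, and for Ccl21a and Acta2 the same share was 75.5% and 64.5%. The median rich spot held 0 UMIs of Cnn1, Ccl21a, Mfap4 and Acta2. The general macrophage gene Lyz2 was spread more evenly, with 29.8% of its UMIs in the top 34 spots and a median of 6 UMIs per rich spot. Of the genes of lipid-associated macrophages, Mmp12, Gpnmb and Trem2 had 61.1%, 52.3% and 46.2% of their UMIs in 34 spots and a median of 0 UMIs each. The whole list was spread about as evenly as Lyz2, with 28.2% in 34 spots and a median of 25 UMIs. Low counts alone raise such shares. H2-DMb1, with 287 UMIs in rich spots, had 40.4% and a median of 0. The ranking genes themselves had 25.2% of their UMIs in 34 spots.

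As lists, smooth muscle held 513 CPM in rich, 94.2 in middle and 70.3 in poor spots (2.87, 2.78 to 2.95; 7 of 7 compared members past 1.5-fold, median 3.34), and collagen and portal fibroblast genes held 1130.0 CPM in rich, 321 in middle and 226 in poor spots (2.32, 2.27 to 2.37; 11 of 11, median 2.15). Off tissue these lists stood at 99.7 and 206 CPM. Gsn had 348 and 38.8 CPM (3.16), Dpt 76.5 and 9.35 CPM (3.03) and Col3a1 223 and 62.4 CPM (1.84). Stellate cell genes differed less (0.69, 4 of 9), with Lrat, which stores retinoids, at 13.2 and 9.91 CPM (0.41) and Reln at 46.9 and 36.5 CPM (0.36). Among vascular and lymphatic genes, Mmrn1, a gene of lymphatic endothelium, had 92 UMIs against 18 (3.93, 3.19 to 4.75) and Vwf, a clotting factor of larger vessels, had 28.8 and 6.53 CPM (2.14). Sinusoidal endothelium was level at 426 and 412 CPM (0.05, −0.01 to 0.11). Markers of bile duct cells below 200 UMIs were higher, with Krt19 at 56 against 29 UMIs (2.53) and Epcam at 82 against 71 (1.79). The red blood cell list also stood higher in rich spots, 1850 against 1222 CPM (0.60, 0.57 to 0.63), and its part in the other differences was not tested. Of the remaining lists, bile duct genes stood at 0.45, vascular and lymphatic genes at 0.68, Fc receptors at 0.18, proliferation genes at 0.44 and monocyte genes at −0.05 on the log2 scale of rich over poor spots.

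Chemokines that draw dendritic cells, T cells and monocytes stood higher too. The list held 635 CPM in rich, 349 in middle and 282 in poor spots (1.17, 1.11 to 1.22), and 6 of 9 compared members were past 1.5-fold. Ccl19, the second ligand of Ccr7, had 41.6 CPM in rich, 8.93 in middle and 6.01 in poor spots (2.79, 2.48 to 3.10). Ccl6, made by myeloid cells, had 96.6 and 25.6 CPM (1.92), and Cxcl16, a lipid scavenger and ligand of Cxcr6, had 51.4 and 18.5 CPM (1.47). Ccl2, which recruits monocytes, had 14.5 and 7.66 CPM (0.92, 0.55 to 1.28), and Cxcl1, which recruits neutrophils, was 16.7 and 20.9 CPM (−0.32, −0.63 to −0.03).

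Interferon target genes did not move as a block. The interferon gamma list, whose cytokine induces class II, stood at 405 CPM in rich, 405 in middle and 371 in poor spots (0.13, 0.07 to 0.19), and 2 of 10 compared members were past 1.5-fold. Gbp2, a guanylate-binding protein, had 16.7 and 7.38 CPM (1.18, 0.82 to 1.53), and Cxcl9, which attracts activated T cells, had 36.8 and 18.0 CPM (1.03, 0.80 to 1.26). Iigp1, the most abundant member, was 116 and 131 CPM (−0.17, −0.29 to −0.06). The type I list was 346 and 209 CPM (0.73), of which Ifi27l2a held 173 and 73.2 CPM (1.24, 1.13 to 1.35).

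Hepatocyte genes stood lower in rich spots, most of all those expressed around the central vein. The pericentral list held 6131 CPM in rich, 8528 in middle and 8375 in poor spots (−0.45, −0.47 to −0.43). Oat, an ornithine aminotransferase, was among the 12 lowest genes, with 534 CPM in rich, 904 in middle and 905 in poor spots (−0.76, −0.81 to −0.71). Cyp2e1, a cytochrome P450, had 3287 and 4745 CPM (−0.53). The periportal list was 4926 and 5868 CPM (−0.25), with Hal, a histidine lyase, at 114 and 165 CPM (−0.53) and Ass1, of the urea cycle, at 1116 and 1361 CPM (−0.29). General hepatocyte genes had a log2 ratio of −0.17 and mitochondrially encoded transcripts one of −0.29. The other lowest genes had few UMIs. They included the major urinary proteins Mup7 (−0.86), Mup9 (−0.80) and Mup16 (−0.79), a family of near-identical genes, and the cytochrome Cyp2b13 (−0.83). Gabbr2 had the lowest ratio (−0.99, −1.59 to −0.44) at 4.35 and 8.64 CPM, followed by Gm17634 (−0.89), Tmem18 (−0.84), Slc17a1 (−0.81), Klhl7 (−0.80), Homer2 (−0.78) and Epb41l5 (−0.78).

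Hepatocyte genes of the acute phase did not share that direction. The list stood at 9993 and 8555 CPM (0.22, 0.21 to 0.24), with 5 of 12 members past 1.5-fold. Saa1 had 926 CPM in rich, 524 in middle and 408 in poor spots (1.18, 1.14 to 1.23), Saa2 had 484 and 172 CPM (1.49, 1.43 to 1.56), and Lcn2 had 256 and 139 CPM (0.88). Hp (haptoglobin) was level at 5370.4 and 5002 CPM (0.10). Of the stress genes, Sprr1a, a gene of injured epithelium, had 36.2 and 8.64 CPM (2.07, 1.79 to 2.35). Lipid droplet genes differed little (−0.11), with Plin2, the droplet coat protein, at 678 and 676 CPM (0.00, −0.04 to 0.05).

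The ordering held along the whole ranking for some lists and at its top for others. The ranked HFD spots were cut into 10 rank groups of like size, from high to low. Pan-macrophage genes went from 2009 CPM through 1509 and 1248 CPM in the next groups to 612 CPM in the lowest, and each group was below the one before. Kupffer genes went from 427 and 417 CPM to 209 CPM, with one step upward, from 308 CPM in the fourth to 335 CPM in the fifth group. Smooth muscle genes stood at 512 CPM in the first group, 126 in the second and 72.2 in the last. T cell genes stood at 54.4, 25.5 and 9.86 CPM in these groups and migratory dendritic genes at 47.7, 18.2 and 10.5 CPM. Class I genes stood at 7249 CPM in the first and 7315 CPM in the second group.

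**Figure D3:**
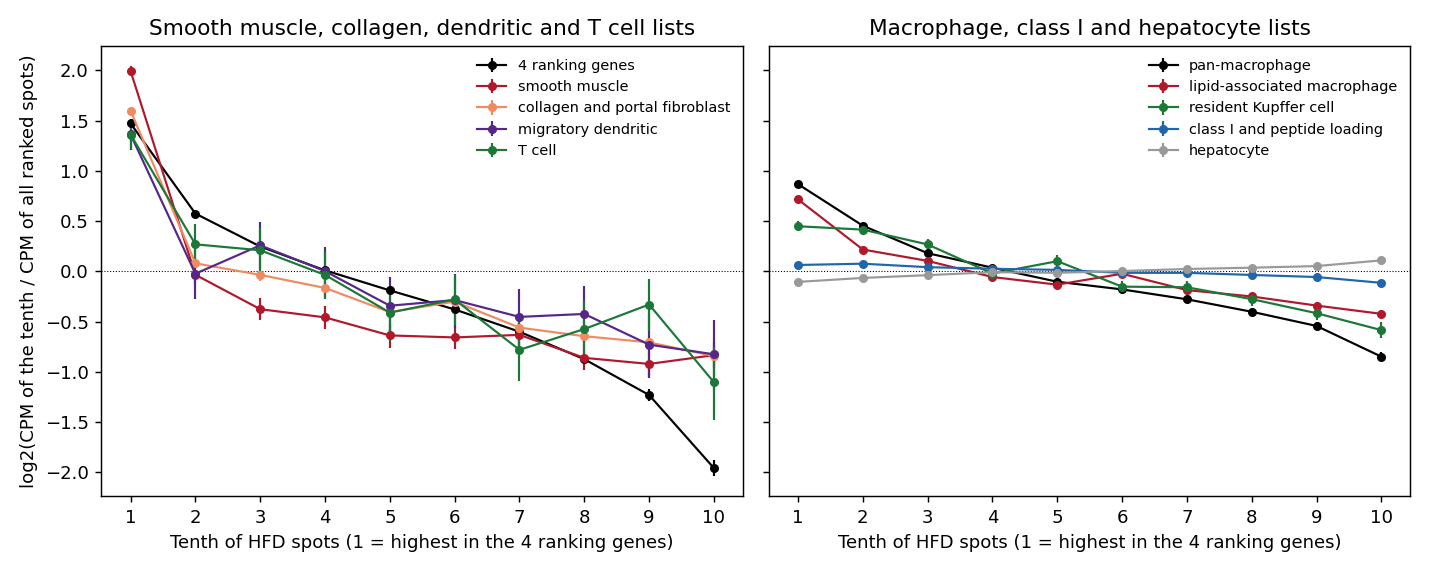
CPM of gene lists in each of 10 rank groups of the HFD spots relative to all ranked spots, on a log2 scale, with 95% counting intervals. The black line on the left is the ranking genes themselves, and a group holds 346 or 347 spots. Smooth muscle drops from 512 to 126 CPM between the first and the second group, while pan-macrophage genes decline over the whole ranking from 2009 to 612 CPM.

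The rich spots also fell among spots rich in other cell types. Of the 346 rich spots, 145 (41.9%) were among the 346 spots highest in the lipid-associated macrophage list, against 27 of 1040 poor spots (2.60%). In the same way, 132 (38.2%) were among the 346 highest in smooth muscle, against 42 poor spots (4.04%). For Kupffer genes it was 82 (23.7%), for the acute phase 74 (21.4%) and for plasma cell genes 33 (9.54%), where 9.97% is the share of all ranked spots in each such set. The first 2 sets split the rich spots into 4 kinds, a split made after seeing the data: 73 spots were in both, 59 only in the smooth muscle set, 72 only in the macrophage set and 142 in neither. The median spot of these kinds held 2525, 1938, 1875 and 1749 CPM of the ranking genes and 19522, 15348, 23314 and 17680 UMIs. The levels of smooth muscle and lipid-associated macrophage genes follow from this split, and all 4 kinds are set against the same poor spots.

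Spots in both sets had the highest levels of T cell, migratory dendritic and lymph vessel transcripts. Ccr7 had 36 UMIs there, 15 in the smooth muscle kind, 7 in the macrophage kind and 5 in the 142 spots of neither set. Ccl21a stood at 299, 199, 11.3 and 7.99 CPM in that order, Ccl19 at 101, 73.2, 17.0 and 11.6 CPM, and Mmrn1 at 34.8, 22.8, 3.97 and 2.54 CPM. H2-Oa, a chain of H2-DO that B cells and some dendritic cells make, had 23, 9, 0 and 2 UMIs. The T cell list had log2 ratios to the poor spots of 3.07, 2.35, 1.75 (1.38 to 2.11) and 0.48, and Krt19 had 32, 8, 14 and 2 UMIs. Conventional dendritic lists were higher than in poor spots in every kind. The type 2 list had log2 ratios of 2.06, 1.79, 1.99 and 1.27, with overlapping intervals in the first 3 kinds, and the type 1 list had 1.97, 1.42, 1.24 and 0.97.

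Kupffer cell transcripts took the opposite distribution. The list stood at 151 CPM in spots of both sets and 152 CPM in the smooth muscle kind, below the 235 CPM of poor spots (log2 ratios −0.64 and −0.63), and at 602 CPM in the macrophage kind and 576 CPM in spots of neither set (1.36 and 1.29). Clec4f followed it, with 12.9, 27.6, 61.2 and 93.4 CPM, and so did Cd5l with 57.9, 45.6, 284 and 235 CPM. The ratio of the Kupffer list over the whole rich group, 0.86, was therefore a mean of kinds on either side of the poor spots. Pan-macrophage genes were higher in every kind, from 1.01 in the smooth muscle kind to 1.72 in the macrophage kind. H2-DMa, not used by the ranking or the split, was higher in every kind as well, at 55.4, 58.0, 36.8 and 33.1 CPM against 10.2 CPM in poor spots.

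The kinds also differed in interferon gamma targets and in hepatocyte zone. The interferon gamma list had log2 ratios of −0.41 (−0.55 to −0.27) in both sets and 0.42 (0.34 to 0.51) in neither set. Cxcl9 stood at 16.1 CPM in the first and 50.9 CPM in the last, against 18.0 CPM in poor spots. Pericentral hepatocyte genes stood at −1.18 in both sets, −0.73 in the smooth muscle kind, −0.66 in the macrophage kind and 0.01 in neither set, and Oat at 252, 401, 364 and 854 CPM. Periportal genes stood at −0.39, −0.19, −0.18 and −0.25 (−0.28 to −0.23) in that order. In spots of neither set the periportal list thus had the lower ratio, unlike in the other kinds. Red blood cell genes were higher in the smooth muscle kind (1.61) and lower in neither set (−0.34). Genes at least 1.5-fold higher than in poor spots were 1127 of 6797 (16.6%) in both sets, 669 of 6685 (10%) in the smooth muscle kind, 580 of 6799 (8.53%) in the macrophage kind and 326 of 6930 (4.7%) in neither set. Genes at least 1.5-fold lower were 491 (7.22%), 427 (6.39%), 156 (2.29%) and 43 (0.62%). The kinds differ in size and so in which genes reach 200 UMIs. In spots of neither set the leading genes, named after seeing their values, were Ear2 (2.20), the lectin Cd207 (2.02), H2-DMb1 (1.98) and Cd300c2 (1.97).

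Without the 132 rich spots of the smooth muscle set, an alternative chosen after seeing the data, several of the ratios above were lower. The number of genes at least 1.5-fold higher than in poor spots was 380 in place of 693. The T cell list had a log2 ratio of 1.12 in place of 1.98, migratory dendritic genes 1.03 in place of 2.01 and collagen genes 1.21 in place of 2.32, and Ccl21a had 1.52 in place of 4.95. Pan-macrophage genes were at 1.51 and Kupffer genes at 1.32, both above their values over all rich spots, and red blood cell genes were at −0.080.

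**Figure D4:**
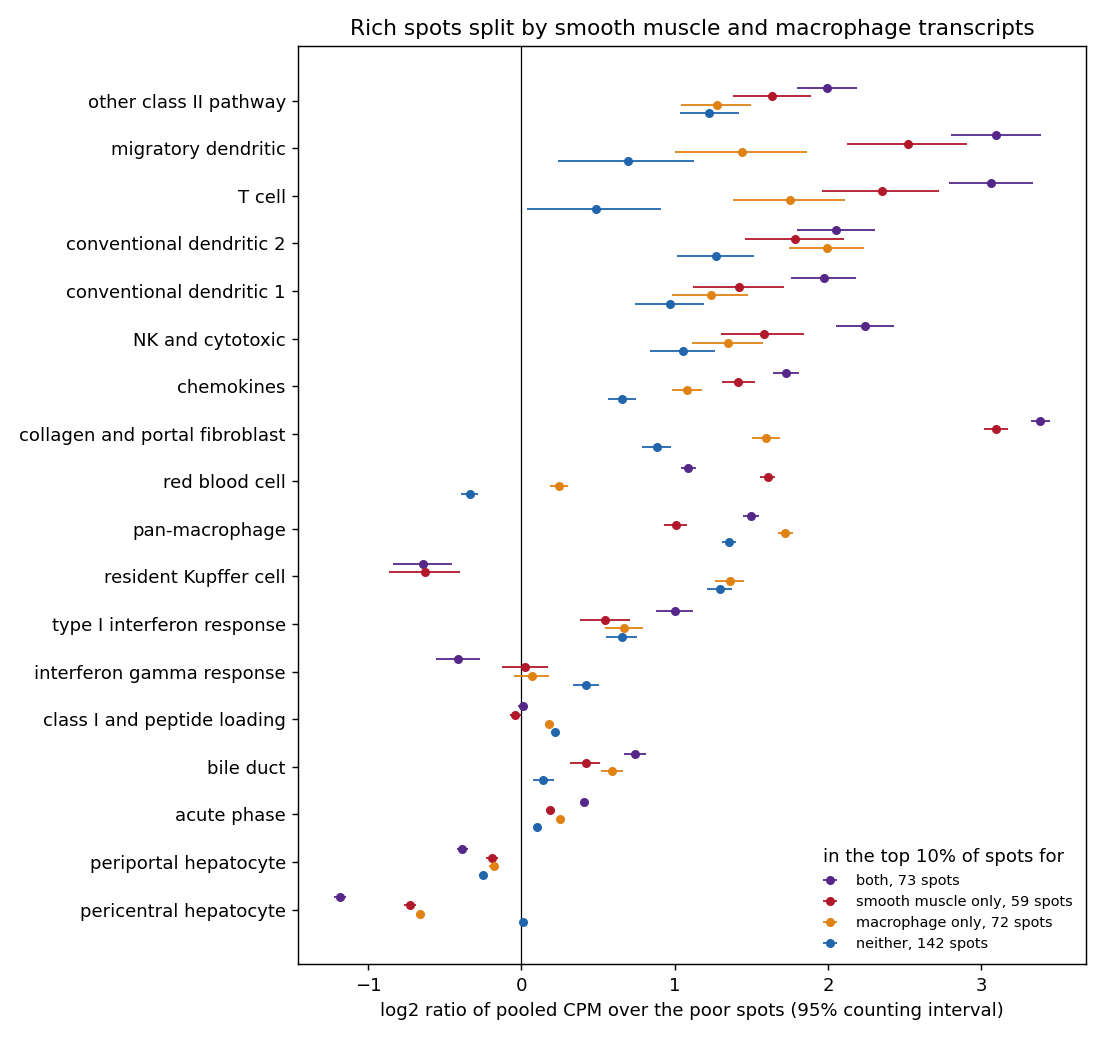
log2 ratio of pooled CPM to the 1040 poor HFD spots, with 95% counting intervals, for rich spots in the top 10% of both smooth muscle and lipid-associated macrophage transcripts (73), of smooth muscle only (59), of macrophage only (72) or of neither (142). T cell and migratory dendritic lists are highest in the first kind, and the Kupffer list lies at −0.64 and −0.63 in both smooth muscle kinds but at 1.36 and 1.29 in the others.

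Class II level also separated spots within these sets. Among the 346 spots highest in smooth muscle, the 132 rich spots were set against the 214 others. T cell genes were at 97.1 against 23.7 CPM (log2 ratio 2.03, 1.68 to 2.40), migratory dendritic genes at 88.2 against 24.3 CPM (1.86) and collagen genes at 2186 against 604 CPM (1.85, 1.78 to 1.93), while Kupffer genes were at 151 against 184 CPM (−0.28, −0.46 to −0.10). The smooth muscle list itself was 1277 against 421 CPM in that set (1.60), so the rich spots were also those with more smooth muscle RNA. Among the 346 spots highest in lipid-associated macrophage genes, the 145 rich spots had 78.6 CPM of T cell genes against 31.7 CPM in the 201 others (1.31, 1.01 to 1.62) and 143 against 68.3 CPM of the other class II pathway (1.06, 0.85 to 1.27). In that set the smooth muscle list differed more, at 681 against 151 CPM (2.18), and collagen genes were at 1468 against 573 CPM (1.36). Their part in the T cell difference was not tested.

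The same rule in the NCD section chose 169 rich and 508 poor spots of 1695 with at least 5000 UMIs. That section was shallower, with 1997 of its 3692 spots under the minimum, and its rich spots had a median of 9260 UMIs against 10527 in its poor spots. Of 3459 genes with at least 200 UMIs, 157 (4.54%) were at least 1.5-fold higher and 22 (0.636%) lower. Among 3449 genes compared in both sections, 88 were higher in both, 82.2% of the 107 in HFD and 57.5% of the 153 in NCD. The wall and lymph vessel genes stood out in both, with Ccl21a at 106 CPM in NCD rich and 2.78 CPM in NCD poor spots (5.26, 4.58 to 6.02) and the smooth muscle list at 2.95 (2.71 to 3.20) in NCD and 2.87 in HFD. The other class II pathway was at 1.52 (1.26 to 1.79) in NCD and 1.5 in HFD.

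Immunoglobulin and interferon gamma genes had larger ratios in the NCD section. The plasma cell list stood at 1888 CPM in NCD rich and 268 in NCD poor spots (2.82, 2.73 to 2.90), against 0.11 in HFD. The B cell list without Ly6d stood at 289 and 9.36 CPM there (4.95, 4.57 to 5.34), with 493 UMIs from Ighm in NCD rich spots, while Cd79a and Ms4a1 had 2 UMIs each. Iglc1, the lambda constant region, had 2081 UMIs in NCD rich spots and 8 in HFD rich spots. The interferon gamma list was at 0.89 (0.79 to 0.98) in NCD and 0.13 in HFD. T cell genes were at 3.09 in NCD and 1.98 in HFD, and migratory dendritic genes at 1.27 and 2.01. When both sections were ranked on spots drawn down to 5000 UMIs, these ratios were 2.62 and 0.11 for plasma cell genes, 0.79 and 0.19 for the interferon gamma list and 2.41 and 1.81 for T cell genes in NCD and HFD. The differences between sections were not tested.

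**Figure D5:**
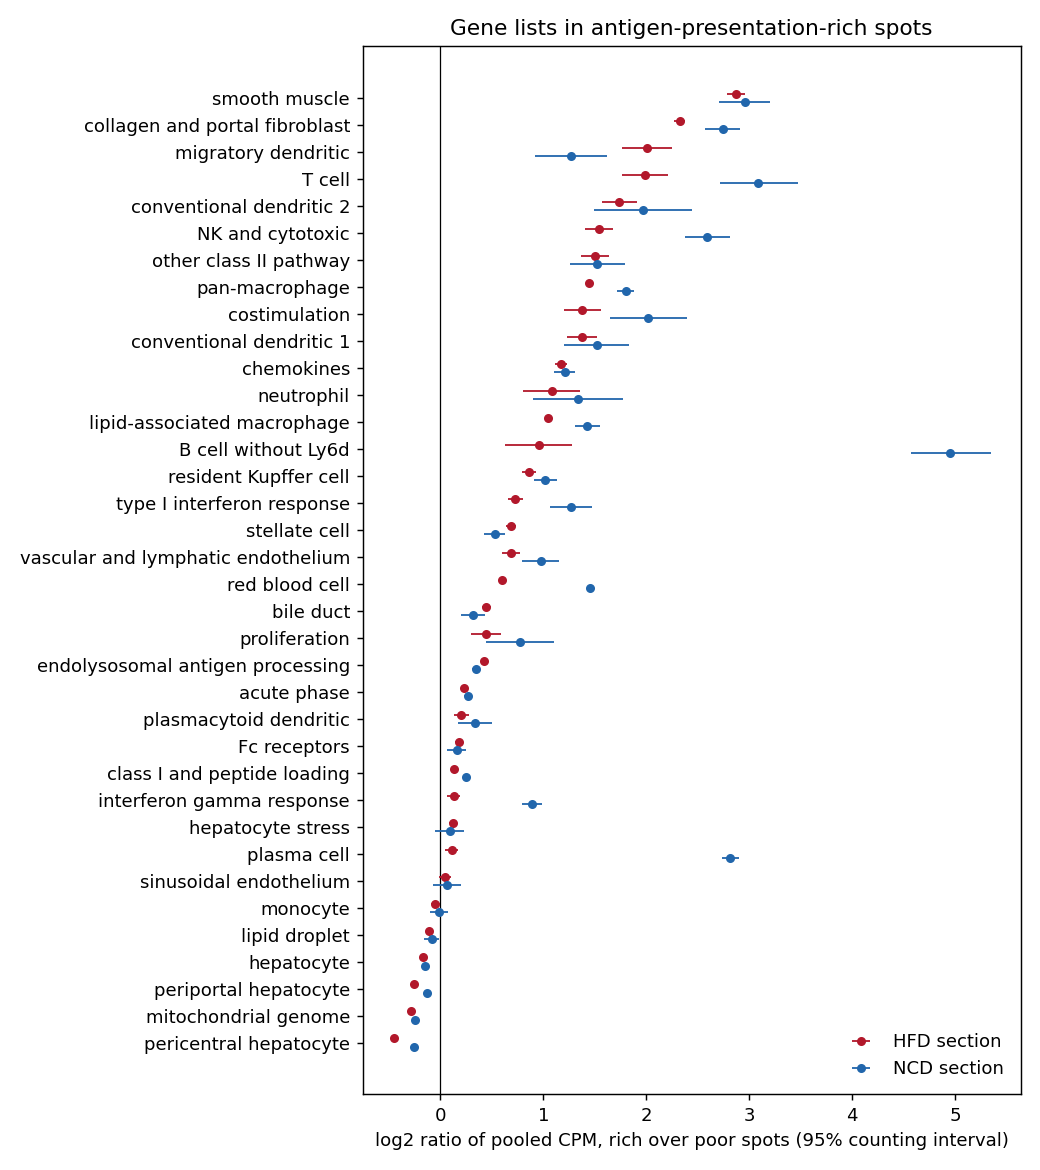
log2 ratio of pooled CPM in rich over poor spots, with 95% counting intervals, in the HFD (red) and NCD (blue) section, for the gene lists other than the ranking genes, mesothelium and the B cell list with Ly6d. Smooth muscle is the highest HFD list at 2.87 and pericentral hepatocyte the lowest at −0.45, and the B cell list without Ly6d and the plasma cell list lie furthest apart between the sections among the lists shown.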

How the data were processed

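ST was analysed in 1 HFD and 1 NCD liver section. What the authors deposited are UMI counts, not normalized, for every gene at all 4992 spots and at those over tissue. The submitters' processing notes name Space Ranger 1.3.1 and mm10. The 4992 spot barcodes are those of the slide, so both sections share them, and 3173 were over tissue in both. Spot positions were not used here. For each of 32285 gene identifiers the UMIs of a group were pooled and scaled to CPM. Intervals were conditional binomial for ratios, and shares of spots are given without intervals because spots are not replicates. A gene was compared with at least 200 UMIs over rich and poor spots, and counted at 1.5-fold. The genes named are the 12 highest and 12 lowest ratios with the same direction against middle spots and within 10 groups of equal depth (6546 of 7634 genes), and in each list the members with most UMIs or past 1.5-fold. Others were named after their values were seen. The members, the 38 lists and most alternatives were chosen with earlier results of these data known. A few identifiers share a symbol, and their UMIs were summed in lists. Mx1 is not used here. A few list members are not reported here. Ratios and intervals were tested on simulated pooled counts with counting error only. That test cannot show how the intervals behave where few spots hold most UMIs. Tools were scipy 1.17.1, pandas 2.3.3, numpy 2.4.6 and matplotlib 3.10.9 under Python 3.11.15, with seed 1. Gene sequences are RefSeq's on GRCm38.p6.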

Additional observations from a re-analysis of the deposited data

How the results depend on the processing

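No paired analysis was possible because each diet has 1 section. Over 58 results and 937 alternatives, 661 values stayed within the interval of the main value, or within 1.5 times of a count, 270 moved beyond it, and 6 whose interval lay to one side of 0 changed sign. These 6 came from leaving out the rich spots that are also among the highest 10% in smooth muscle, an alternative chosen after seeing the data: plasma cell −0.050, red blood cell −0.080, lipid droplet 0.016, Cnn1 −1.85, Acta2 −0.19 and Myh11 −0.061. The sinusoidal endothelium list (0.05), whose interval spans 0, was −0.030 with the top 5% of spots, −0.040 against all other spots and −0.011 without mitochondrial and the 20 most abundant genes. Removing spots by smooth muscle genes lowers Cnn1, Acta2 and Myh11 by construction. The same alternative left 380 genes higher and 20 lower, and gave 1.25 for the other class II pathway and 0.91 for lipid-associated macrophages.

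The count of higher genes (693) was 1835 with at least 50 UMIs per gene, 4993 with at least 1, 118 with at least 1000 and 321 at 2-fold. The count of lower genes (34) was 129, 1714, 12 and 0 under these settings. It was 119 with the top 5% of spots, 5 with the top 20% and 87 against all other spots. The log2 ratio of the other class II pathway (1.5) was 1.75 with the top 5%, 1.18 with the top 20%, 1.19 against all other spots and 1.36 when ranked at 5000 UMIs. For lipid-associated macrophages (1.05) these settings gave 1.23, 0.82, 0.82 and 0.87, the mean of CPM per spot 0.98, a total without mitochondrial and the 20 most abundant genes 0.99, and a ranking without Cd74 0.96. The B cell list (0.93) was 0.59 against all other spots and 0.75 when ranked at 5000 UMIs. Without the abundant genes the median log2 ratio of all genes was 0.04 in place of 0.10. Ranking at 5000 UMIs kept 256 of the 346 rich spots. At these depths, small differences of genes with few UMIs were not detectable.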
